A study of Rattus norvegicus with 63 samples.

Results

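Nfkbia, Zfp36 and Dusp1 were followed in rat kidney through every time of a methylprednisolone time course, on all probe sets that carry 1 of these 3 gene symbols. A probe set is a group of short array probes for the same transcript. The 3 genes are among 10621 gene symbols that the arrays pair with a probe set of their own. They had 11 probe sets: 4 of the 15866 probe sets other than array controls on the main array type, and 7 of the 8740 on the second. Nfkbia had 3 of them, Zfp36 had 3 and Dusp1 had 5. Each probe set is read against itself over time, because levels cannot be set against each other between probe sets.

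Total RNA of the kidney was hybridised to Affymetrix arrays. The group at 0 h had 4 libraries and received no drug; the 16 later groups, of 3 libraries each, received methylprednisolone, a glucocorticoid drug, and were taken 0.25, 0.5, 0.75, 1, 2, 4, 5, 5.5, 6, 7, 8, 12, 18, 30, 48 and 72 h later. The second array type held 10 libraries: 4 untreated, and 3 each from 2 h and 6 h. Dose, strain, age and the hour of day are not given in the labels, untreated animals belong to 0 h only, and time of day or an effect of handling cannot be told apart from the drug. The labels number the samples of a time without saying that they are separate animals, so p-values reflect the spread among the samples alone, and that spread may be technical.

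Background on the genes comes first. Glucocorticoids bind a receptor that acts as a transcription factor, and part of their anti-inflammatory action runs through genes that the receptor induces. Nfkbia encodes IkappaB-alpha, which holds the transcription factor NF-kappaB in the cytoplasm and is itself a target of NF-kappaB, so that it closes a feedback loop. Zfp36 encodes tristetraprolin (TTP), a zinc finger protein that binds AU-rich elements of cytokine mRNAs and recruits the deadenylases that degrade them. Dusp1 encodes a dual-specificity phosphatase that removes the activating phosphates from the MAP kinases p38 and JNK, and it keeps TTP active by limiting p38 signalling. All 3 belong to the genes that cells induce within minutes of a stimulus, and stress or inflammatory signals induce them as well as glucocorticoids do.

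The bases before each transcription start are shown because the 3 genes rose together within the first hour. The RefSeq table of the build GRCr8 held all 3 genes. The sequences are the 250 bases upstream of the start, written 5′ to 3′ on the gene's strand: Nfkbia at chr6:78597073-78597322 on the minus strand, Zfp36 at chr1:92799109-92799358 on the minus strand and Dusp1 at chr10:17184603-17184852 on the plus strand. Both strands were searched, and capitals mark matches to the full motifs; matches to shorter motifs outside these stay in lower case.
Nfkbia: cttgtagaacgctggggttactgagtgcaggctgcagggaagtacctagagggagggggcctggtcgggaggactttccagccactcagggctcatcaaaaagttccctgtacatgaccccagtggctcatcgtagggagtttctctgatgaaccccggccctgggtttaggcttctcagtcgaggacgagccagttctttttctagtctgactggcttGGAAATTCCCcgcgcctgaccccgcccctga
Zfp36: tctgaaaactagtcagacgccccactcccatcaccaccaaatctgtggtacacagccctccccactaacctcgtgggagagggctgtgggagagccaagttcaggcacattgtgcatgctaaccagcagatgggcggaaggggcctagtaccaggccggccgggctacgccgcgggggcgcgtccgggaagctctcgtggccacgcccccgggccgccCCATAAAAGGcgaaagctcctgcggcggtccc
Dusp1: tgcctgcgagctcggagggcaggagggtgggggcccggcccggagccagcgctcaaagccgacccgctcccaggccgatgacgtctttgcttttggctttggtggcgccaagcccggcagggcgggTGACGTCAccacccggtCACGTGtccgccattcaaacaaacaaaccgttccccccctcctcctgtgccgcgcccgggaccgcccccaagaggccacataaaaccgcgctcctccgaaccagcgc
Each of the 3 windows held a different match. In Nfkbia it was an NF-kappaB consensus, GGAAATTCCC, from base -31 to base -22 counted from the start, a motif that 6.33% of 33469 RefSeq windows of the same length contained. In Zfp36 it was a CArG box, the site of serum response factor, CCATAAAAGG from -32 to -23, which 1.5% of the windows contained. In Dusp1 it was a cyclic AMP response element, TGACGTCA from -124 to -117, found in 1.59% of the windows. Dusp1 also had an E-box, CACGTG from -107 to -102, found in 5.59%. The shorter motif TGACG, which 18.22% of the windows contained, occurred once more in Dusp1, from -172 to -168, besides its copies inside the full element. No match to the full glucocorticoid response element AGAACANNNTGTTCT (0.01% of the windows), to the AGAACA motif that makes up each arm of it (17.52%) or to the AP-1 site TGANTCA (6.34%) lay in the 3 windows. These are matches of letters in short windows, and binding was not measured.

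The tissue label was checked against markers. Slc34a1 of the proximal tubule (median signal 4048 over the libraries), Umod of the thick limb (3134) and Aqp2 of the collecting duct (533) were bright. Of the hepatocyte list 3 of 6 genes passed the filter on low values, with medians from 5.28 (Apoa1) to 151 (Apoh) and a sum of up to 1466 in a library at 2 to 4 h. Of the adrenal list 1 of 4 passed, with medians from 5.62 (Cyp17a1) to 104 (Cyp11a1), and of the lymphocyte list 1 of 6, with medians from 6.14 (Cd79b) to 93.5 (Cd4). Median signals per array were 65.6 to 83.3 (main type) and 38.8 to 45.0 (second type). On the main type 6 libraries stood apart from the others of their time by a signal of Fga, the fibrinogen alpha chain, over 1000: 0.25 h replicate 2, 0.5 h replicate 3, 1 h replicate 2, 5 h replicate 2, 7 h replicate 3 and 8 h replicate 1. All 3 libraries at 4 h and 2 of 3 at 2 h were also over 1000, so that there no library stood apart in this way. Where leaving out these 6 libraries, or the 1 of the time tested, changed a call or direction of a member result, both values are given. Differences at 0.25, 1 and 5 h that became smaller but kept their call are given both ways too.

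On the main array type Nfkbia was the member with the largest rise. On the second type the Dusp1 probe set U02553cds_s_at differed most from 0 h, by 3.20 on the log2 scale at 6 h. The signal of the Nfkbia probe set on the main type (1389538_at) was 35.7, 64.5, 31.7 and 70.1 in the 4 libraries at 0 h. It was 260.5, 951 and 361 in the 3 libraries at 0.25 h. At 0.5 h it was 1169, 1362 and 1209. Every library of both early times lay above every library at 0 h, and the 3 libraries at 0.5 h lay within a narrow range. Relative to 0 h the difference was 3.04 ± 0.49 on the log2 scale (SE) at 0.25 h, an 8.20-fold higher signal (adjusted p = 0.000664, limma with Benjamini-Hochberg adjustment over 9520 probe sets), and 4.49 ± 0.49 at 0.5 h, or 22.5-fold (adjusted p = 5.81e-08). Without 0.25 h replicate 2, 1 of the 6 libraries with high Fga, the difference at 0.25 h was 2.50 (limma, adjusted p = 0.0458). Differences are on the log2 scale of the signal plus 7.63 on the main type and plus 3.56 on the second, which understates the change of dim genes.

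Zfp36 rose at the same times. Its probe set on the main type (1387870_at) read 148, 218, 165 and 195 at 0 h, and 806, 1698 and 1046 at 0.25 h. At 0.5 h the signals were 1532, 2088 and 1602. The lowest library of either early time was far above the highest at 0 h. The difference from 0 h was 2.60 ± 0.35 at 0.25 h (6.07-fold, adjusted p = 1.84e-05) and 3.21 ± 0.35 at 0.5 h (9.25-fold, adjusted p = 5.28e-08). Without the 6 libraries with high Fga the difference at 0.25 h was 2.31 and still called.

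Dusp1 rose less by 0.25 h. Its brighter probe set on the main type (1368146_at) read 99.5, 173, 124 and 134 at 0 h and 294, 719 and 230.0 at 0.25 h. At 0.5 h it read 542, 827 and 857. The groups did not overlap at either time, although at 0.25 h a single library, replicate 2, was far above the other two. The difference of 1.44 ± 0.33 at 0.25 h missed the threshold over all probe sets (adjusted p = 0.0733), and without replicate 2 it was 0.96 (adjusted p = 0.536). It passed with array weights (1.44, adjusted p = 0.0406). It also passed without 0.25 h replicate 1, 0.25 h replicate 3 or 7 h replicate 3, with adjusted p down to 0.0193. At 0.5 h the difference was 2.41 ± 0.33, or 5.33-fold (adjusted p = 9.02e-06). Few probe sets of the array had risen so soon: 0.0735% of those tested passed the test as higher at 0.25 h, among them Nfkbia and Zfp36, and 0.473% at 0.5 h, among them all 3.

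**Figure D1:**
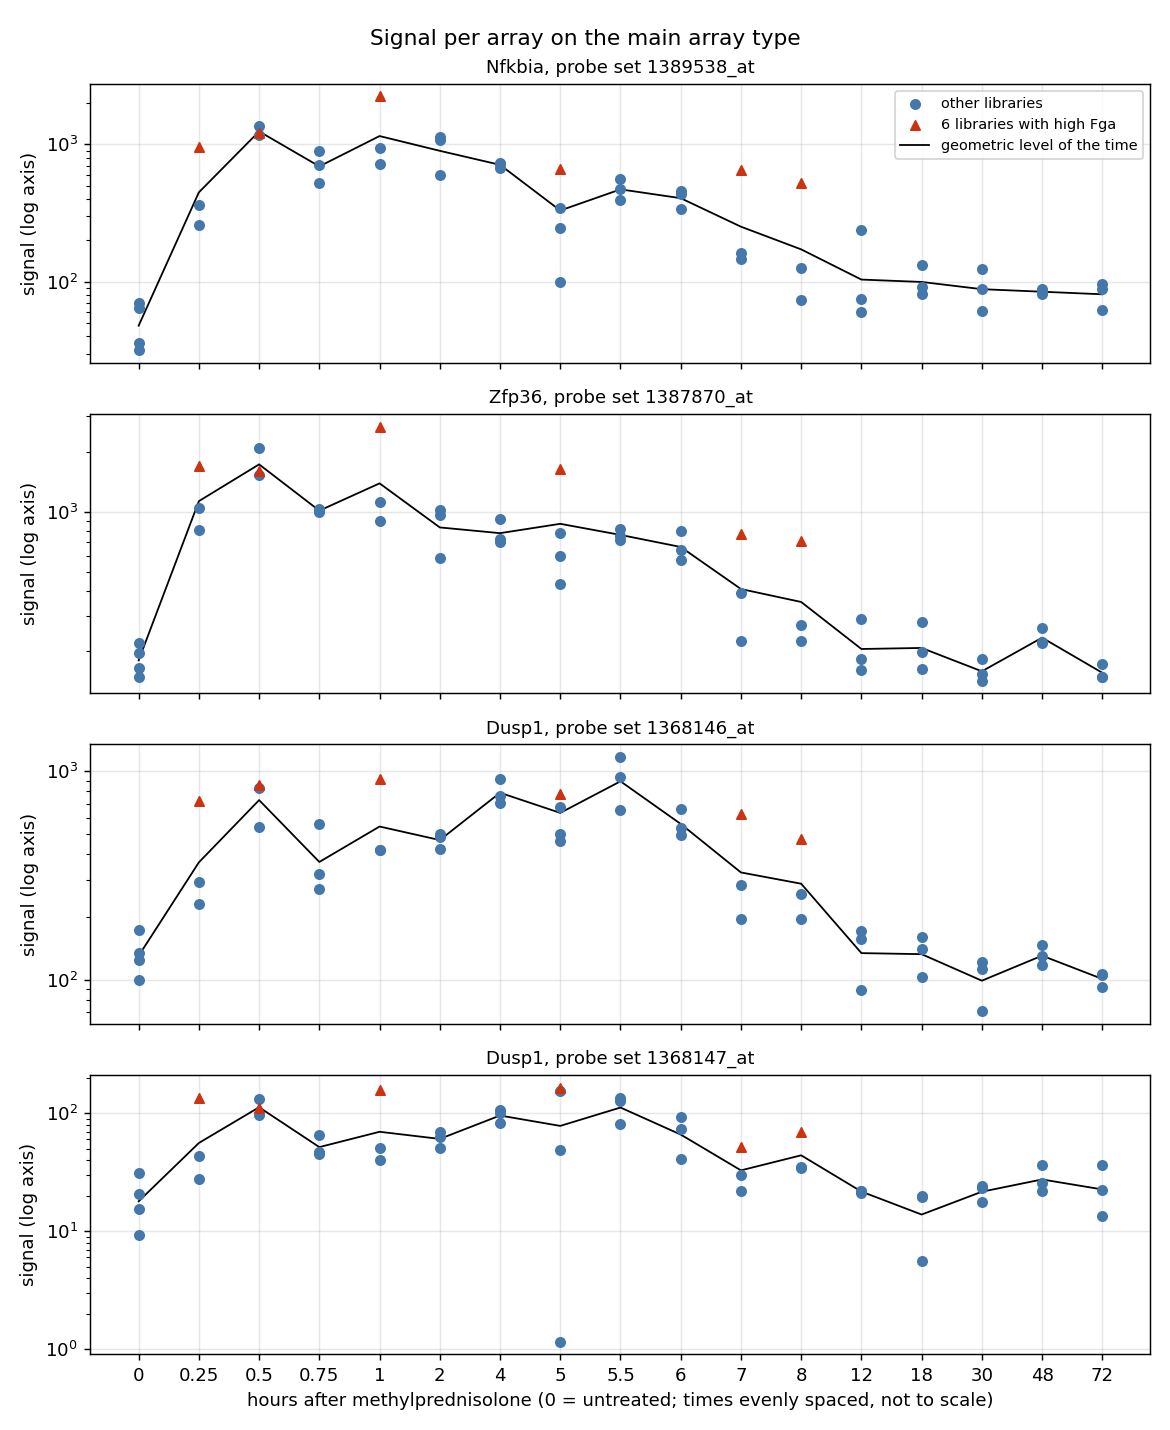
Signal (log axis) of the 4 member probe sets of the main array type in each array against the time after methylprednisolone, with times evenly spaced. Triangles mark the 6 libraries with high Fga and the line is the back-transformed mean log2 level of each time; Nfkbia, Zfp36 and the dimmer Dusp1 probe set stand highest at 0.5 h, the brighter Dusp1 probe set at 5.5 h, and no probe set was called from 12 h on.

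From 0.75 to 4 h the genes stayed high, and no step between these consecutive times passed the test for any of them. Nfkbia read 894, 707 and 525 at 0.75 h, 724, 2239 and 938 at 1 h, and 1127, 599.9 and 1071 at 2 h. At 4 h it read 674, 736 and 724. All of these libraries lay above the 0 h range, and replicate 2 at 1 h, 1 of the 6 libraries with high Fga, was the highest Nfkbia value of the whole course. The differences from 0 h were 3.65, 4.38, 4.03 and 3.69 (each SE 0.49), with adjusted p between 9.24e-08 at 1 h and 6.69e-06 at 0.75 h. Zfp36 read 1026, 1009 and 996 at 0.75 h, 895, 2663 and 1112 at 1 h, and 1018, 586 and 966 at 2 h. At 4 h it read 923, 704 and 728. The 3 libraries at 0.75 h agreed closely, the same replicate 2 was highest at 1 h, and replicate 2 at 2 h was the lowest of its time for Nfkbia and Zfp36 alike. That library had an Fga signal of 523, against 2139 and 2509 in the others. Without it the Nfkbia difference from 0 h at 2 h was 4.31, and the part of Fga was not tested.

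Within this stretch Dusp1 was highest at 4 h. It read 562, 272 and 323 at 0.75 h, 419, 913 and 418 at 1 h, and 425, 501 and 481 at 2 h. At 4 h it read 916, 764 and 701. The 4 h libraries lay above all 3 of the 2 h libraries, although the step of 0.74 between these times did not pass the test (adjusted p = 0.336). Against 0 h all 3 genes passed the test at 0.75, 1, 2 and 4 h, where 0.326%, 0.567%, 2.61% and 5.71% of tested probe sets were called higher. The Dusp1 call at 0.75 h (1.44 ± 0.33, adjusted p = 0.0308) was lost when any 1 of 5 libraries was left out, the most without 0.75 h replicate 1 (1.14, adjusted p = 0.634), and also without the arrays lettered b or c (adjusted p = 0.0589).

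Between 5 and 8 h the libraries of a time were close together at some times and far apart at others. For Nfkbia the signals were 99.9 and 247 on the 2 arrays of replicate 1 at 5 h, which were averaged, 657 and 343 in replicates 2 and 3, and 556, 394 and 477 at 5.5 h. They were 455, 434 and 339 at 6 h, 148, 163 and 651 at 7 h and 525, 126 and 74.3 at 8 h. At 7 h replicate 3 and at 8 h replicate 1, both with high Fga, were several times as bright as the other two libraries. The difference from 0 h was 2.22 ± 0.49 at 7 h (adjusted p = 0.00425) and 1.69 ± 0.49 at 8 h (adjusted p = 0.0629). The 8 h value rested on replicate 1, without which it was 0.91 (adjusted p = 0.642), and it passed with quantile scaling (1.75, adjusted p = 0.0471) or when any 1 of 6 other libraries was left out. Without replicate 3 alone the 7 h value was 1.55 (adjusted p = 0.157), while without all 6 libraries with high Fga it was 1.55 with adjusted p = 0.00926.

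Zfp36 showed the same pair of bright libraries. It read 602 and 436 on both arrays of replicate 1 at 5 h, 1640.0 and 777 in the others, and 719, 758 and 818 at 5.5 h. It read 569.7, 799 and 644 at 6 h, 226, 389 and 774 at 7 h, and 713, 224 and 271 at 8 h. All libraries still exceeded the highest 0 h value of 218, by little in the lowest ones. The 7 h difference of 1.15 ± 0.35 passed narrowly (adjusted p = 0.0485); without replicate 3 it was 0.70 (adjusted p = 0.589), and leaving out any 1 of 39 of the 52 libraries ended the call. At 8 h the difference was 0.94 ± 0.35 (adjusted p = 0.216), and without replicate 1 it was 0.44 (adjusted p = 0.833).

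Although the dimmer Dusp1 probe set of the main type was highest at 0.5 h, the brighter one reached its highest level in this stretch. It read 461 and 503 on the arrays of replicate 1 at 5 h, 774 and 675 in the others, and 936, 1169 and 655 at 5.5 h. It read 661, 532 and 497 at 6 h, 195, 286 and 622 at 7 h, and 473, 196 and 259 at 8 h. The 5.5 h libraries included the highest Dusp1 value of the course, and the libraries at 7 and 8 h that were bright for the other genes were the brightest for Dusp1 too. The difference from 0 h was 2.71 ± 0.33 at 5.5 h (6.54-fold, adjusted p = 1.64e-07), close to 2.53 at 4 h and 2.41 at 0.5 h. At 7 h it was 1.28 ± 0.33 (adjusted p = 0.0184; 0.82 with adjusted p = 0.391 without replicate 3), and at 8 h 1.10 ± 0.33 (adjusted p = 0.0785; 0.76 with adjusted p = 0.537 without replicate 1). The 8 h value passed with array weights (0.86, adjusted p = 0.0319). All 3 genes were thus called higher at 5, 5.5, 6 and 7 h, beside 3.18%, 3.29%, 3.09% and 2.26% of tested probe sets, and none at 8 h, where 1.14% were. At 5 h the differences of Nfkbia, Zfp36 and Dusp1 were 2.60, 2.23 and 2.21. Without the 6 libraries with high Fga they were 2.12, 1.77 and 2.07, all still called.

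From 12 h on the signals of all 3 genes were far below those of the first hours. Nfkbia read 239.6, 74.9 and 60.2 at 12 h, 133, 91.0 and 81.6 at 18 h and 62.2, 96.3 and 88.7 at 72 h. It read 125, 88.9 and 61.6 at 30 h and 81.0, 88.3 and 85.0 at 48 h. Its values at 12, 30 and 72 h overlapped those at 0 h, while those at 18 and 48 h lay just above them, and the high library at 12 h, replicate 1, also had the highest summed macrophage and neutrophil marker signal of its time (2974, against 1791 and 1765). Zfp36 lay between 142 and 289.9 and Dusp1 between 70.7 and 171 over the 15 libraries of 12 to 72 h. No member passed the test at 12, 18, 30, 48 or 72 h, where 0.0945%, 0.126%, 0%, 0% and 0% of tested probe sets were called higher. The point estimates of Nfkbia stayed above 0 at all 5 times, from 1.00 at 12 h to 0.68 at 72 h (each SE 0.49, adjusted p between 0.796 and 0.999).

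**Figure D2:**
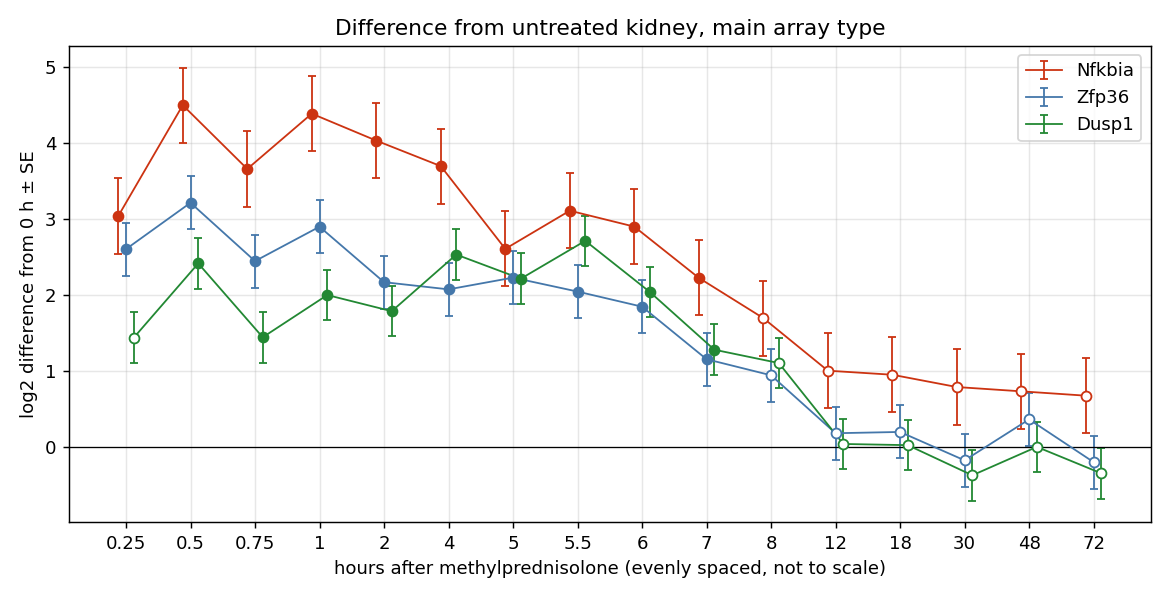
Log2 difference from 0 h (± SE of the fit) of the brighter probe set of each member at the 16 later times, evenly spaced; filled points had an adjusted p under 0.05. Nfkbia reached 4.49 and Zfp36 3.21 at 0.5 h, Dusp1 2.71 at 5.5 h, and no point from 8 h on was called.

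As shares of the highest time, the level at 0.25 h was 36.0% for Nfkbia, 65.4% for Zfp36 and 40.9% for Dusp1. By 4 h Nfkbia was at 57.1% and Zfp36 at 45.2% of the 0.5 h level, while Dusp1 was at 88.1% of its own highest level. At 8 h the shares were 13.8%, 20.4% and 32.3%. All these shares include the 6 libraries with high Fga and were not computed without them. At 0.25 h the differences from 0 h were 3.04, 2.60 and 1.44, and without the 6 they were 2.50, 2.31 and 0.96. At 8 h they were 1.69, 0.94 and 1.10, and without the 6 they were 0.91, 0.44 and 0.76. Times next to each other in the order of levels were hard to separate: of 16 neighbouring pairs in that order, none differed by more than the distance from the estimate to the bound of its 95% interval for Nfkbia or for Zfp36, and 1 did for Dusp1, 8 h above 12 h by 1.06. Of the steps between consecutive times, the first one passed the test for Nfkbia and Zfp36, and none of the 15 later steps did for any member (2 for Nfkbia, 1 for Zfp36 and 2 for Dusp1 without the 6 libraries with high Fga); over those 15 steps 0.0749% of all tests were called. The place of the highest time among its neighbours is therefore a description.

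Pooling the times into 5 windows gave firmer contrasts. In the first hour (0.25 to 1 h, n = 12) Nfkbia was higher than at 0 h by 3.89 ± 0.37 (14.8-fold, adjusted p = 9.48e-10), Zfp36 by 2.79 ± 0.26 (6.90-fold, adjusted p = 7.22e-10) and Dusp1 by 1.82 ± 0.25 (3.54-fold, adjusted p = 6.71e-06). At 2 to 4 h (n = 6) the differences were 3.86, 2.12 and 2.16, and at 5 to 8 h (n = 15) 2.50, 1.64 and 1.87, with adjusted p no higher than 1.09e-05. No library of these windows overlapped the 0 h range for any of the 3 genes. Tested probe sets called higher made up 0.62%, 5.17% and 4.98% in the 3 windows. At 12 to 18 h the differences were 0.98, 0.19 and 0.03, and at 30 to 72 h 0.73, -0.0030 and -0.24; none was called, where 0.284% and 0% of probe sets were. Without the 6 libraries with high Fga the 3 early windows kept their calls for every member, with Nfkbia at 3.64, 3.86 and 2.12, Zfp36 at 2.61, 2.12 and 1.36, and Dusp1 at 1.58, 2.16 and 1.68.

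Steps between windows were tested gene by gene, and which gene passed at a step is no test of a difference between genes. From the first hour to 2 to 4 h Nfkbia moved by -0.03 ± 0.32 (95% interval -0.68 to 0.62, adjusted p = 0.962) and Dusp1 by 0.33 ± 0.22 (adjusted p = 0.328), while Zfp36 fell by 0.67 ± 0.23 (adjusted p = 0.0482), a call lost when any 1 of 35 libraries was left out. Probe sets called lower in this step made up 6.19%. From 2 to 4 h to 5 to 8 h Nfkbia fell by 1.35 ± 0.31 (adjusted p = 0.0100), while the changes of -0.48 ± 0.22 in Zfp36 (adjusted p = 0.236) and -0.29 ± 0.21 in Dusp1 (adjusted p = 0.491) were not called, against 1.61% of probe sets called lower. From 5 to 8 h to 12 to 18 h all 3 fell, Nfkbia by 1.53 ± 0.31 (adjusted p = 0.000521), Zfp36 by 1.45 ± 0.22 (adjusted p = 5.66e-06) and Dusp1 by 1.84 ± 0.21 (adjusted p = 1.38e-08), with 6.02% of probe sets called lower. No member was called from 12 to 18 h to 30 to 72 h, where 0.546% were. All 6 libraries with high Fga lie in the first hour or at 5 to 8 h, and 5 of the 6 libraries at 2 to 4 h have Fga over 1000 and stay in, so leaving the 6 out lowers the windows on both sides of 2 to 4 h. Without them Zfp36 fell at the second step too (-0.76, adjusted p = 0.000124), and Dusp1 rose at the first step (0.58, adjusted p = 0.0103) and fell at the second (-0.48, adjusted p = 0.0338).

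The difference in course was tested directly, library by library, on the log2 difference between 2 members. From the first hour to 5 to 8 h Nfkbia moved by -1.39 and Dusp1 by 0.05, and their difference changed by -1.43 (permutation test, 2-sided, p = 1e-05, the smallest that 100000 permutations can give; adjusted p = 3e-05 over 6 comparisons). Zfp36 moved by -1.15 over the same span, a change of -1.19 relative to Dusp1 (permutation p = 1e-05, adjusted p = 3e-05). Nfkbia and Zfp36 did not separate, with a change of -0.24 in their difference (permutation p = 0.198, adjusted p = 0.210). From the first hour to 12 to 18 h, when Zfp36 and Dusp1 differed from 0 h by 0.19 and 0.03, the changes mostly restate the unequal rises of the first hour: -1.12 for Nfkbia against Dusp1 (permutation, adjusted p = 0.000825), -0.81 for Zfp36 against Dusp1 (permutation, adjusted p = 0.000600) and -0.32 for Nfkbia against Zfp36 (permutation, adjusted p = 0.210). From the first hour to 5 to 8 h both Nfkbia and Zfp36 thus dropped relative to Dusp1, by a difference larger than the spread between libraries. Both spans share the libraries of the first hour.

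Tested over all 16 later times at once, each member was among the strongest responders by a moderated F test that called 16.1% of probe sets. Zfp36 ranked 32 of 9520 (F = 20.2, adjusted p = 6.88e-12), Dusp1 ranked 36 (F = 19.1, adjusted p = 1.5e-11) and Nfkbia ranked 48 (F = 16.1, adjusted p = 2.07e-10). The members were chosen with earlier results of these data known, so their ranks are a description.

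The second Dusp1 probe set of the main type (1368147_at) was dim, with a mean log2 level under the 40th percentile of the probe sets, and it did not pass the filter. It read 15.4, 20.8, 9.28 and 31.0 at 0 h, 96.4, 133 and 111 at 0.5 h, 82.2, 107 and 99.6 at 4 h, and 21.2, 22.01 and 21.9 at 12 h. Its values at 0.5 and 4 h lay above all 0 h values and its 12 h values among them. At 0.25 h it read 28.0, 134 and 43.4, and the lowest of these was within the 0 h range. Tested without the filter, over 15866 probe sets, it was higher than at 0 h by 2.23 ± 0.47 at 0.5 h (adjusted p = 0.0129), by 2.01 at 4 h (adjusted p = 0.00436), by 1.75 at 5 h (adjusted p = 0.0264) and by 2.22 at 5.5 h (adjusted p = 0.00207). At 0.75, 1, 2, 6 and 7 h, where the brighter probe set was called, its differences of 1.21, 1.60, 1.42, 1.53 and 0.66 did not pass, nor did those of 1.32 at 0.25 h and 1.01 at 8 h.

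The second array type gave separate probe sets for the same genes at 2 and 6 h. Nfkbia probe set X63594cds_at read 111, 121, 71.8 and 112 at 0 h, 826, 783 and 861 at 2 h and 279, 342 and 262 at 6 h. The 3 groups did not overlap, with 6 h between the others. It was higher by 2.97 ± 0.21 at 2 h (7.82-fold, adjusted p = 1.18e-05 over 5244 probe sets) and by 1.48 ± 0.21 at 6 h (adjusted p = 0.00197), and fell by 1.48 ± 0.23 from 2 to 6 h (adjusted p = 0.0109). Probe set X63594cds_g_at, for the same transcript, read 88.5, 76.4, 71.9 and 73.6 at 0 h, 801, 535 and 712 at 2 h and 357, 303 and 246 at 6 h. It differed from 0 h by 3.06 ± 0.21 (adjusted p = 7.96e-06) and 1.90 ± 0.21 (adjusted p = 0.000279), and its fall of 1.16 ± 0.22 passed as well (adjusted p = 0.0281). The fall of X63594cds_at lost its call without 6 h replicate 3 (-1.40, adjusted p = 0.0700), and that of X63594cds_g_at without any 1 of 5 of the 10 libraries (0 h replicate 4, 2 h replicates 1 and 3, and 6 h replicates 2 and 3), with adjusted p up to 0.123. Both probe sets hence put the 6 h level between 0 h and 2 h.

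The 2 probe sets of Zfp36 had similar differences at 2 h, of which 1 passed the test. X63369cds_at read 191, 282, 227 and 157 at 0 h, 496, 598 and 551 at 2 h and 303, 437 and 375 at 6 h, so that neither later group overlapped 0 h. Its difference was 1.37 ± 0.23 at 2 h (adjusted p = 0.00441) and 0.80 ± 0.23 at 6 h (adjusted p = 0.108). The probe set rc_AA800613_at read 171, 194, 211 and 184 at 0 h, 559.8, 183 and 877 at 2 h and 353, 634 and 527 at 6 h. Replicate 2 at 2 h was within the 0 h range while the other two were far above it, and neither difference passed (1.23 ± 0.42, adjusted p = 0.0825; 1.36 ± 0.42, adjusted p = 0.158). Without that library both passed, at 1.87 (adjusted p = 0.00147) and 1.36 (adjusted p = 0.00575).

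The 3 probe sets of Dusp1 were all higher at both times. U02553cds_s_at read 15.1, 30.8, 29.9 and 51.7 at 0 h, 279.7, 272 and 234 at 2 h and 338, 282 and 283 at 6 h, differences of 3.01 ± 0.30 (adjusted p = 0.000204) and 3.20 ± 0.30 (adjusted p = 0.000127). S81478_s_at read 43.0, 51.9, 48.6 and 49.0 at 0 h, 99.9, 104 and 118 at 2 h and 220.4, 169 and 143 at 6 h, differences of 1.10 ± 0.20 (adjusted p = 0.00634) and 1.79 ± 0.20 (adjusted p = 0.000279). Its 6 h libraries were all above its 2 h libraries, a step of 0.69 ± 0.21 that did not pass (adjusted p = 0.134). S74351_s_at, the probe set with the widest spread of the 3, read 14.7, 40.2, 7.99 and 43.4 at 0 h, 214, 194 and 94.9 at 2 h and 204, 153 and 118 at 6 h. It differed from 0 h by 2.66 ± 0.47 (adjusted p = 0.00650) and 2.63 ± 0.47 (adjusted p = 0.0111). From 2 to 6 h none of the Dusp1 probe sets changed by the test, and both Nfkbia probe sets fell. Of all probe sets of this type 4.82% were called higher at 2 h, 1.56% higher at 6 h and 0.744% lower at 6 h than at 2 h.

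**Figure D3:**
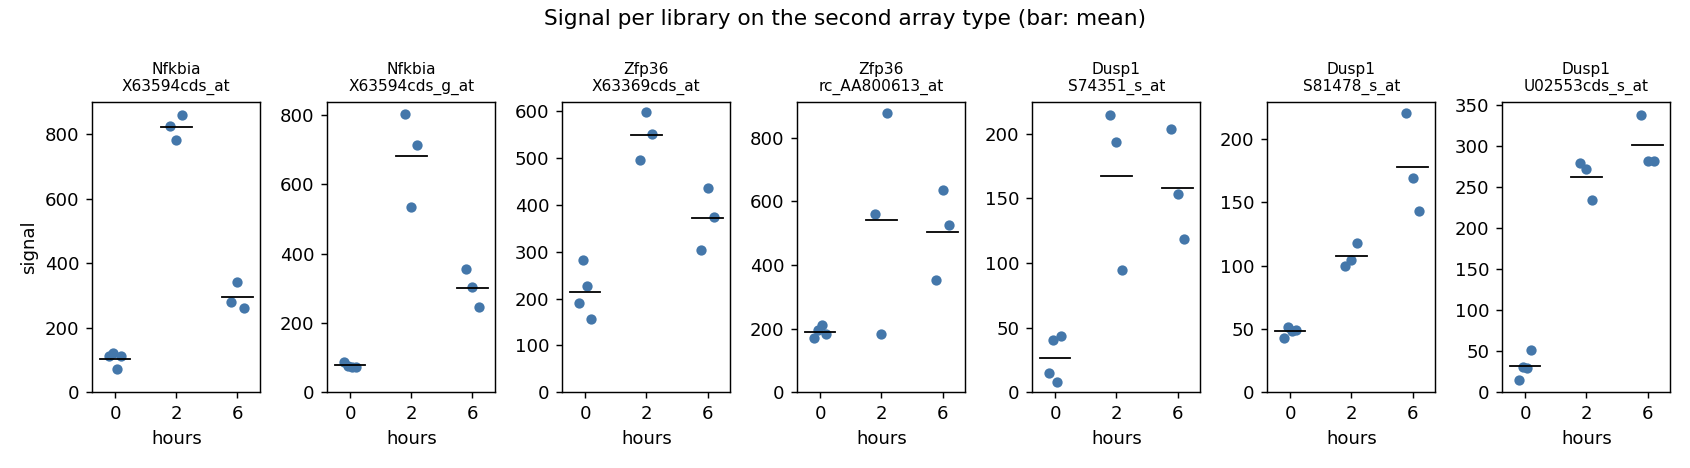
Signal of the 7 member probe sets in the 10 libraries of the second array type at 0, 2 and 6 h (linear axes from 0; bars are means). The 2 Nfkbia probe sets fell from 2 to 6 h, the 3 Dusp1 probe sets did not pass the test for that step, and in Zfp36 rc_AA800613_at replicate 2 at 2 h lay at 183, within the 0 h range.

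The spread between libraries of the same time was wide for all 3 genes. The residual SD of log2 signal around the time means was 0.69 for Nfkbia, 0.48 for Zfp36 and 0.46 for Dusp1, against a median of 0.26 over tested probe sets, and 98.1%, 92.9% and 91.6% of these had a smaller one. Over 52 libraries the deviations of Nfkbia and Zfp36 from their time means moved together (Pearson r = 0.858, Spearman rho = 0.765, permutation adjusted p = 0.000120 for each, over 6 relations, r = 0.812 without the 2 libraries farthest from the median). For Zfp36 and Dusp1 the values were r = 0.720 and rho = 0.616 (permutation adjusted p = 0.000180 and 0.000420; r = 0.662 without the 2 farthest). For Nfkbia and Dusp1 they were r = 0.675 and rho = 0.585 (permutation adjusted p = 0.00182 and 0.00172; r = 0.592 without the 2 farthest).

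The 6 libraries with high Fga carried much of this. Fga itself went with Nfkbia (r = 0.619, rho = 0.403), Zfp36 (r = 0.663, rho = 0.465) and Dusp1 (r = 0.604, rho = 0.467), with permutation adjusted p of r of 0.00472, 0.00472 and 0.00294. In these 6 libraries Dusp1 was the highest of its time in 6, and Nfkbia and Zfp36 in 5; the exception was 0.5 h replicate 3, where Nfkbia deviated by -0.04 and Zfp36 by -0.11 in spite of an Fga signal of 2207. At 0.5 h all 3 libraries had high signals of the chemokine Cxcl1 (1876 to 2034, level 14.3 at 0 h). The cytokine Il1b was high in all of them too (790 to 919, level 44.3 at 0 h). Leaving out 0.5 h replicate 3 keeps the others of that time, and the part of these genes was not tested. At 8 h replicate 1 the deviations were 1.57, 1.00 and 0.70, and at 7 h replicate 3 they were 1.34, 0.91 and 0.91. Without the 6, over 46 libraries, Nfkbia and Zfp36 still moved together (r = 0.599, rho = 0.564, permutation adjusted p = 0.0188 and 0.0185), Nfkbia and Dusp1 did not pass (r = 0.238, permutation adjusted p = 0.613), nor did Zfp36 and Dusp1 (r = 0.398, permutation adjusted p = 0.0896), and Fga was unrelated to any of them by the test (r = -0.0611, -0.0519 and 0.0373; permutation adjusted p = 0.817 for each). The 6 were picked by their Fga signal, so leaving them out also narrows the spread of Fga within their times. The loss of the relation with Fga was therefore partly set by that choice, and no conclusion is drawn from it.

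**Figure D4:**
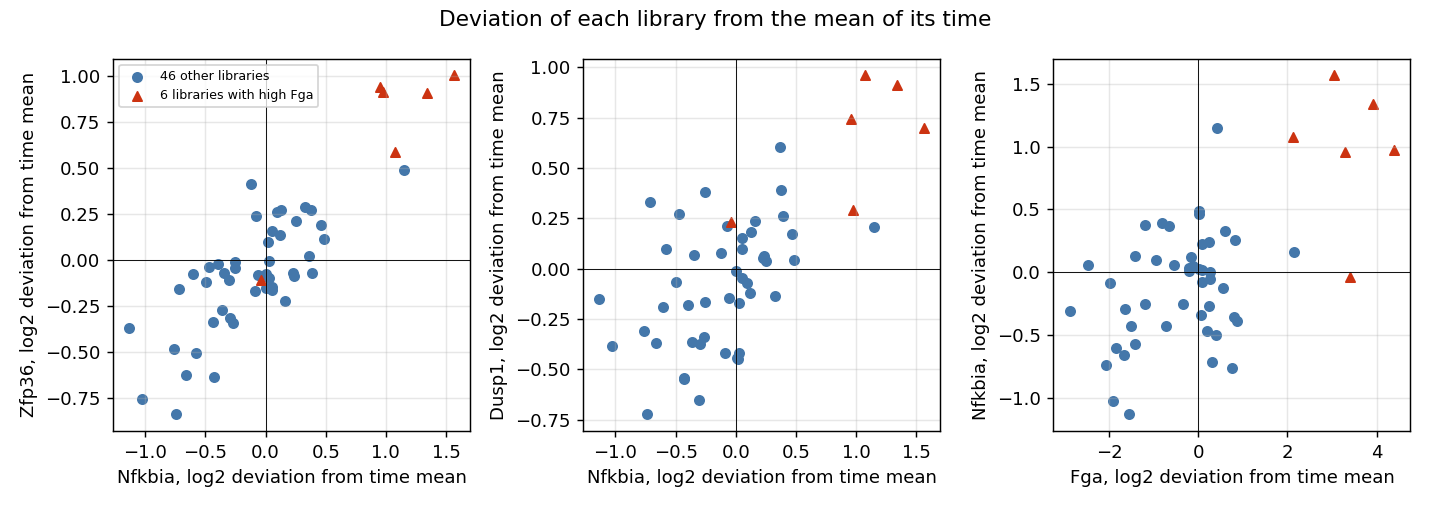
Deviation of each library from the mean log2 level of its time, for Nfkbia against Zfp36, Nfkbia against Dusp1, and Fga against Nfkbia (n = 52). Triangles are the 6 libraries with high Fga, 5 of which lie near or above 1 for Nfkbia; without them r was 0.599, 0.238 and -0.0611.

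A sum of macrophage and neutrophil markers was high in the same libraries. The summed signal of 10 macrophage and neutrophil markers was the highest of its time in 6 of the 6 libraries with high Fga, for example 3364 at 7 h replicate 3 against 2701 and 2187. Over groups the sum ran from 1325 to 1637 at 0 h, from 1673 to 3063 in the first hour, from 2393 to 2947 at 2 to 4 h and from 1716 to 3364 at 5 to 8 h. The medians of single markers ran from 7.28 (Itgam) to 1216 (Lyz2). Lyz2 thus makes up much of the sum, and the sum does not show that the markers moved together. The lowest sum of the first hour, 1673, thus lay above the highest at 0 h, 1637. By the test, none of the 8 markers that passed the filter rose in the first hour, where 0.62% of all tested probe sets were called higher. At 2 to 4 h 5 rose (Cd14, S100a9, Lyz2, C1qa and C1qb) and at 5 to 8 h 4, where 5.17% and 4.98% of all tested probe sets were called higher. Their part in the results was not tested. In bulk tissue more cells of a type and more RNA per cell cannot be told apart.

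Some genes around NF-kappaB rose in the first hours. Of 13 tested subunits, inhibitors and kinases of the pathway other than Nfkbia, 0 rose in the first hour, 3 at 2 to 4 h and 0 at 5 to 8 h, beside 0.62%, 5.17% and 4.98% of all tested probe sets. The 3 were Nfkb2, a subunit precursor (0.95 ± 0.32, adjusted p = 0.0481), Nfkbib, a paralogue of Nfkbia (0.44 ± 0.14, adjusted p = 0.0436), and Tnip1, a partner of the deubiquitinase A20 (0.70 ± 0.15, adjusted p = 0.00110). The list's median difference was 0.25, 0.42 and 0.18 in the 3 windows, against -0.03, -0.07 and -0.03 over all tested probe sets. Of 15 tested target genes of NF-kappaB, 3 rose in the first hour (0.62% of all tested probe sets did), the chemokine Ccl3 (1.42 ± 0.32), the cytokine Il1b (2.10 ± 0.42) and the adhesion molecule Vcam1 (1.60 ± 0.31), with adjusted p of 0.0132, 0.00357 and 0.00220. At 2 to 4 h 2 were higher, Cxcl10 (2.42 ± 0.78, adjusted p = 0.0389) and Vcam1 (1.96 ± 0.34, adjusted p = 8.00e-05), and from 5 h on none. The median of this list was 1.22, 0.76 and 0.16. None of the 15 was called lower than at 0 h in any window. At 0 h Ccl3, Il1b and Cxcl10 had low levels of 36.6, 44.3 and 50.8, and Vcam1 had 120.5. A fall from such low levels is hard to detect, so no conclusion is drawn from its absence.

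Of 14 tested members of the TTP family and the mRNA decay machinery other than Zfp36, 0 rose in the first hour, 2 at 2 to 4 h and 1 at 5 to 8 h. In the same windows 0.62%, 5.17% and 4.98% of all tested probe sets were called higher. Cnot1, the scaffold of the deadenylase complex, was higher by 0.54 ± 0.15 at 2 to 4 h (adjusted p = 0.0140) and by 0.56 ± 0.13 at 5 to 8 h (adjusted p = 0.00288). Btg1, an antiproliferative cofactor of deadenylation, was higher by 0.65 ± 0.19 at 2 to 4 h (adjusted p = 0.0260). Of 9 tested mRNAs that TTP is known to bind, Ccl3 and Il1b rose in the first hour, and Plau, the urokinase, was lower by 0.61 ± 0.20 at 2 to 4 h (adjusted p = 0.0450) and by 1.02 ± 0.17 at 5 to 8 h (adjusted p = 5.26e-05). From the first hour to 2 to 4 h 4 of these 9 fell, beside 6.19% of all tested probe sets, among them Il1b by 1.22 ± 0.36 (adjusted p = 0.0208) and Ccl3 by 0.80 ± 0.27 (adjusted p = 0.0485), and 0 rose. The list's median difference from 0 h was 1.32, 0.27 and 0.07 in the 3 windows. Against 0 h, the comparison in which Plau was called lower, 0.042%, 4.8% and 4.73% of tested probe sets were lower in these windows.

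Of the MAP kinase branch, 2 of 6 other dual-specificity phosphatases on the array passed the filter, and neither changed by the test in any window (medians 0.09, -0.08 and -0.37 in the 3 early windows). In the 3 early windows 0.62%, 5.17% and 4.98% of all tested probe sets were called higher, and 0.042%, 4.8% and 4.73% lower. Of 10 tested MAP kinases and their kinases, 0 changed in the first hour. At 2 to 4 h Mapk14, which encodes p38-alpha, a substrate of the Dusp1 product, rose by 1.37 ± 0.26 (adjusted p = 0.000306) and Map2k3, a kinase that activates it, by 0.55 ± 0.16 (adjusted p = 0.0201), while Mapk12 fell by 0.49 ± 0.12 (adjusted p = 0.00469). At 5 to 8 h Mapk14 alone was called (0.85 ± 0.23, adjusted p = 0.0113). The list's medians were 0.02, 0.09 and -0.20.

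Other rapid and glucocorticoid-induced genes give the setting. Among all tested probe sets, 0.62% were called higher in the first hour, 5.17% at 2 to 4 h, 4.98% at 5 to 8 h and 0.284% at 12 to 18 h. Of 10 tested immediate early factors, 3 rose in the first hour, Gadd45b (2.31 ± 0.41, adjusted p = 0.000754), Nr4a1 (1.79 ± 0.26, adjusted p = 2.29e-05) and Klf2 (0.97 ± 0.25, adjusted p = 0.0450), followed by 2 at 2 to 4 h and 2 at 5 to 8 h, with medians of 1.07, 0.78 and 0.43. Of 10 other tested glucocorticoid-induced feedback and anti-inflammatory genes, 7, 8 and 8 rose in the 3 windows, with medians of 1.40, 2.32 and 1.66. By 12 to 18 h Sgk1, a kinase that regulates sodium transport, alone was still called (1.06 ± 0.19, adjusted p = 0.00154). Fkbp5, a cochaperone of the receptor, had levels of 53.4, 60.8, 326 and 658 at 0, 0.5, 2 and 4 h, the last its highest, whereas Nfkbia and Zfp36 were highest at 0.5 h; the difference in onset was not tested. Tsc22d3, which encodes GILZ, had levels of 286, 733 and 1698 at 0, 0.5 and 4 h, the last its highest. The level of Nr3c1, the receptor gene itself, was 208 at 0 h, and it was lowest at 4 h with 112. Of 8 tested acute phase and tubular injury genes, 0 rose in the first hour, 7 at 2 to 4 h and 1, Lcn2, at 5 to 8 h, with medians of 1.22, 2.09 and 1.11; the largest were Fga (5.27 ± 1.16, adjusted p = 0.00159) and Fgg (4.76 ± 1.19, adjusted p = 0.00576) at 2 to 4 h.

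**Figure D5:**
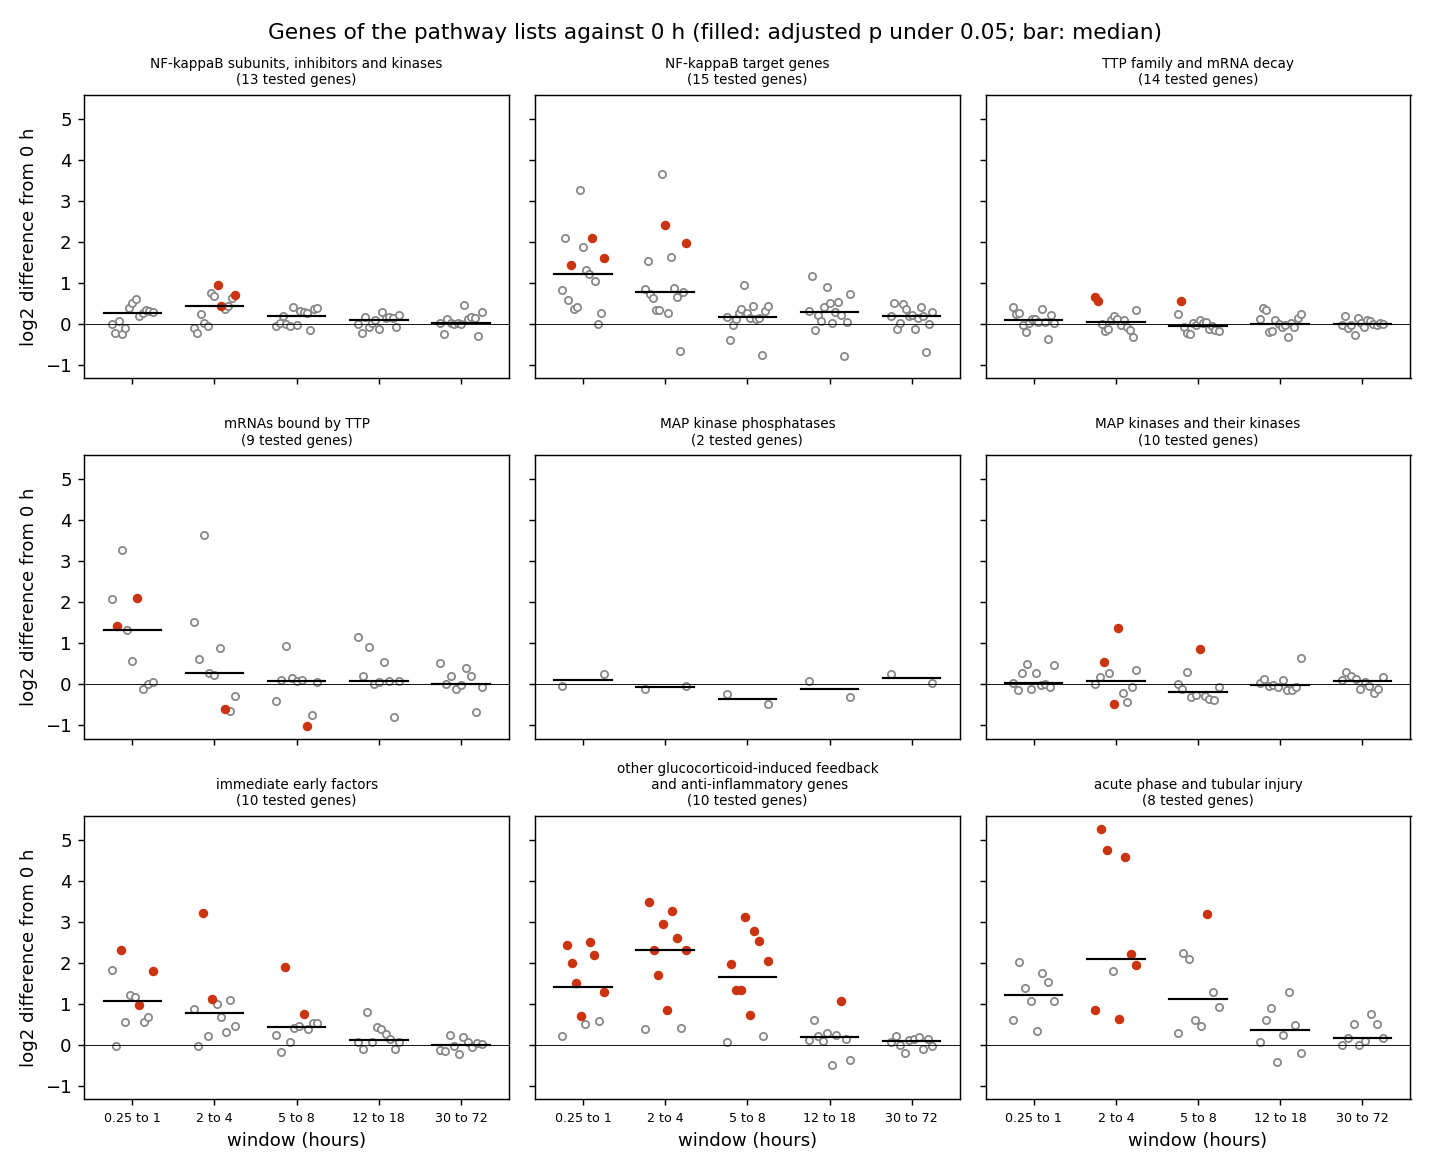
Log2 difference from 0 h in the 5 windows for every tested gene of the 9 pathway lists (1 point a gene, filled where the adjusted p was under 0.05; bar at the median). Calls cluster in the first 3 windows, most of all among other glucocorticoid-induced genes, where 7, 8 and 8 of 10 rose. In these windows 0.62%, 5.17% and 4.98% of all tested probe sets were called higher. Only Sgk1 was called at 12 to 18 h.

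The genes with the most similar courses are named as a description, by Pearson correlation of the 17 time means on the log2 scale. For Nfkbia they were Cebpd (0.983), Depp1 (0.973), Zfp36 (0.957), Rin2 (0.950) and Ripk4 (0.939). For Zfp36 they were Depp1 (0.958), Nfkbia (0.957), Cebpd (0.955), Tcim (0.932) and Ripk4 (0.925). For Dusp1 they were a different set, Errfi1 (0.955), Ccn2 (0.930), Ddit4 (0.928), Resf1 (0.925) and Cebpb (0.925), of which 4 peaked at 4 h. Dusp1 correlated with Nfkbia at 0.884 and with Zfp36 at 0.900 over the same means. All of these means share their libraries.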

How the data were processed

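Total RNA of rat kidney had been measured on Affymetrix arrays: 53 arrays of the main type, counted as 52 libraries since 2 arrays of 1 sample at 5 h were averaged, and 10 of the second. The deposited values are intensities on a linear scale, 1 per probe set and array, per the deposited tables; no source used here names the algorithm behind them. Groups came from the labels. Of the probe sets other than controls, 12783 of the main type and 7006 of the second have 1 gene symbol in the platform annotation, 312 and 308 have several and 2771 and 1426 none.

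Values were changed to log2(intensity + 7.63) on the main type and log2(intensity + 3.56) on the second, the 10th percentile of each table. Probe sets whose mean level was below the 40th percentile were left out, leaving 9520 and 5244. Means of all times were fitted at once with limma 3.58.1 in R 4.3.3 (lmFit, eBayes), each array type alone, with Benjamini-Hochberg adjustment over all probe sets tested and a threshold of 0.05. Permutation tests used numpy 2.4.6 with 100000 permutations, and scipy 1.17.1 gave the ranks for the Spearman correlations. The fit was tested on simulated data. The number of libraries, 3 or 4 a group, limits the precision.

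The members and gene lists were chosen with earlier results of these data known, so list counts and the ranks of the members are descriptions. Lists covered the NF-kappaB pathway and its targets, the TTP family and mRNAs bound by TTP, MAP kinases and their phosphatases, immediate early factors, other glucocorticoid-induced genes, and acute phase and tubular injury genes. Named are every member probe set and, of a list, up to 4 called genes, the 2 largest rises and the 2 largest falls of a window; Nfkbib, Ccl3 and Klf2 were named besides, after their values were seen. Nr3c1, Fkbp5, Tsc22d3, Fga, Cxcl1 and Il1b served as reference genes, and likeness named the 5 genes most like each member. Alternatives were the pseudocount, quantile scaling, no filter, the sample number as a replicate block, array weights, leaving out arrays with the letter b or c in their title, fitting the compared times alone and leaving out each library. Leaving out the 6 libraries with high Fga was chosen after seeing the data.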

Additional observations from a re-analysis of the deposited data

Results flagged for a closer look

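At 0 h on the second array type, 1 of the 4 libraries stood apart for Nfkbia probe set X63594cds_at: replicate 3 read 71.8 where the others read 111, 121 and 112. Its gap to the nearest library was 0.839 of the range of the group on the log2 scale, and chance alone gives such a gap in about 1 in 20 groups. All 11 member probe sets were searched in this way at 0 h, and this gap was the largest of them. In the other Nfkbia probe set of this array type the same library read 71.9, the lowest of 4 close values. Without it the difference of X63594cds_at at 2 h was 2.80 and still called.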

How the results depend on the processing

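The rises of the 3 members in the first hour, at 2 to 4 h and at 5 to 8 h, and their falls to 12 to 18 h, kept direction and call under all alternatives that were run and without each library. Other results moved.

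With the sample number as a replicate block, 86 of 90 member results kept direction and call; the exceptions were Zfp36 at 30 to 72 h (0.036), its fall from the first hour to 2 to 4 h (-0.67, adjusted p = 0.0505), Zfp36 at 7 h (1.19, adjusted p = 0.0755) and Dusp1 at 0.75 h (1.46, adjusted p = 0.0840). Whether the numbers pair samples is not given in the labels. Deviations of equal numbers at different times correlated at 0.0612 on average, over 0.1 in 153 of 408 pairs. For unequal numbers the average was lower, -0.0285, and 137 of 864 pairs were over 0.1. The difference between the 2 kinds of pairs was not tested. Zfp36 at 30 to 72 h was 0.011 with quantile scaling. Its fall from the first hour to 2 to 4 h was -0.67 without the filter (adjusted p = 0.0677) and -0.52 with arrays of the letters b and c left out (adjusted p = 0.244). The Nfkbia step from the first hour to 2 to 4 h was 0.10 with array weights, 0.11 without letters b or c and 0.22 without the 6 libraries with high Fga. From 2 to 4 h to 5 to 8 h Zfp36 changed by -0.66 with array weights (called) and by -0.76 without the 6 libraries; there Dusp1 was at 0.58 and -0.48 in the first 2 steps, both called. Dusp1 at 12 to 18 h was -0.091 with weights. On the second type, rc_AA800613_at of Zfp36 was -0.052, 1.36 and 1.41 (2 h, 6 h, 6 h against 2 h) without letters b or c, and 1.61, 1.38 and -0.23 with weights; X63369cds_at at 6 h was 0.89 with weights (called), and the fall of X63594cds_g_at was -0.83 without letters b or c (not called). Without the 6 libraries the correlations were 0.238, 0.398, -0.0611, -0.0519 and 0.0373. The cause of these moves was not tested.

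Leaving out 1 library gave ranges of -0.089 to 0.17 (Dusp1, 12 to 18 h), -0.13 to 0.11 (Nfkbia, first hour to 2 to 4 h), -0.42 to 0.042 (Nfkbia, 12 to 18 h to 30 to 72 h), -0.75 to -0.54 (Zfp36, first hour to 2 to 4 h) and -0.093 to 0.087 (Zfp36, 30 to 72 h). On the second type they were 2.24 to 2.92 and -0.39 to 0.18 (S74351_s_at, 6 h and 6 h against 2 h), -1.59 to -1.40 (X63594cds_at) and -1.33 to -1.03 (X63594cds_g_at, both 6 h against 2 h), and 0.75 to 1.87, 1.17 to 1.59 and -0.51 to 0.61 (rc_AA800613_at).

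Most background counts of the main type moved furthest with array weights. There 104 against 59 probe sets were higher in the first hour (35 with the replicate block). By the F test it was 4607 against 1535 (911 without letters b or c). From 2 to 4 h to 5 to 8 h 1210 against 153 were lower (49 without letters b or c). Higher at 12 to 18 h were 13 against 27 with the compared times fitted alone. On the second type 255 against 39 were lower at 6 h than at 2 h without letters b or c (88 with weights). Signals near the added value, such as Dusp1 1368147_at, have a change that is bounded by the pseudocount.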
